A study of Mus musculus with 2 samples.

Results

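The 10 genes described here encode parts of the intercalated disc, the junction that joins heart muscle cells end to end. They are desmoplakin (Dsp), plakophilin 2 (Pkp2), plakoglobin (Jup) and desmoglein 2 (Dsg2) of the desmosome, N-cadherin (Cdh2), alpha-T-catenin (Ctnna3) and vinculin (Vcl) of the adherens junction, connexin 43 (Gja1) of the gap junction, the scaffold ZO-1 (Tjp1), and the intermediate filament protein desmin (Des). They were chosen by name, for the structure their proteins belong to, at a time when earlier results of these data were known. All 10 were present among the 24522 gene rows of the multichamber study and among the 22679 gene rows of the live and fixed study.

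The series asked how well single heart muscle cells can be isolated with a sorter built for large particles. Cells were released from hearts of wild-type C57BL/6 mice by enzyme perfusion, sorted into plates and profiled by SCRB-seq, a method that tags each polyadenylated RNA near its 3' end with a cell barcode and a unique molecular identifier (UMI). In the multichamber study, unfixed cells of adult mice about 3 months old carried a chamber label, either of the left or right ventricle (LV, RV) or of the left or right atrium (LA, RA). In the live and fixed study, ventricular cells of adult mice were sorted live or after 800 µL of 100% ethanol had been added to cells in 200 µL of phosphate buffered saline. No group carried a genetic change, and no animal is named for any cell. The protocol text describes excision of the ventricle only and gives no separate step for the atria.

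The intercalated disc couples heart muscle cells both mechanically and electrically. Desmosomes anchor the desmin filaments of neighbouring cells to each other, adherens junctions anchor the contractile actin filaments, and gap junctions pass the electrical impulse. In the adult heart these structures are mixed at the cell ends, and inherited loss of desmosomal proteins is known as a cause of arrhythmogenic cardiomyopathy.

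A cell was kept when it held 500 genes and 1000 gene UMIs or more. The kept cells of a label were summed into 1 pool, which gave 91 LV, 90 RV, 56 LA and 44 RA cells beside 35 fixed and 31 live cells. The pools held 733462 (RA) to 5259330 (RV) gene UMIs. A level is given as CPM, the UMIs of a gene after scaling the nuclear-encoded UMIs of the pool to a total of 1000000, and a ratio is the quotient of the CPM of the pools compared. With 1 pool a label no test was run. All intervals are exact 95% intervals of the counts (Clopper-Pearson), which cover counting error only and not variation between animals. Ratios are counted as past the threshold at 1.5-fold, over genes with at least 30 UMIs in the pools compared, a minimum that all 10 genes passed in every comparison.

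The atrial labels did not match the defining markers. Nppa, the atrial natriuretic peptide gene, had 0 UMIs in both atrial pools, and the atrial light chain gene Myl7 had 81 UMIs in the LA pool and 0 in the RA pool. The ventricular light chain gene Myl2 stood at 9322 to 11721 CPM in all 4 chamber pools, lowest in LA and highest in RA. LA and RA below therefore mean cells that carry those labels. Their pools also held more red blood cell RNA, at 26768 CPM (LA) and 49832 CPM (RA) against 12060 (LV) and 12984 (RV). The part of this RNA by itself in the results was not tested. An alternative without cells rich in RNA of other cell types is given at the end. The 4 multichamber libraries (A to D) shared 80 of 84 cell barcode sequences, 72 of which were used in the live and fixed study too. No barcode occurred under the same library index in more than 1 library.

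Together the 10 genes made up 0.322% to 0.341% of nuclear-encoded UMIs in LV, RA and RV and 0.249% in LA. Live cells held 0.237% and fixed cells 0.175%. By structure, the 4 desmosomal genes held 30.3% of these UMIs in LV and 31.4% in RV, the 3 adherens junction genes 34.2% and 34.7%, Gja1 with Tjp1 8.49% and 7.67%, and Des 27.0% and 26.3%. In live cells the adherens junction genes held 52.0% of these UMIs and in fixed cells 36.9%.

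In the desmosome, Dsp, on chromosome 13 (38151294 to 38198577, plus strand, GRCm38), encodes the plakin that ties desmin to the desmosomal plaque. It was the most abundant of the 4 desmosomal genes in every pool and ran from 590 CPM (542 to 641) in LA through 606 (538 to 681) in RA and 700 (668 to 733) in LV to 798 (766 to 830) in RV. Live cells stood at 385 CPM (354 to 418) and fixed cells at 366 (343 to 391). The ventricular intervals of the multichamber study lay above the LA interval, while live and fixed overlapped. Without the LA cells rich in mesothelial RNA, described below, LA stood at 698 CPM (641 to 760), which overlapped LV. Pkp2 (chromosome 16, 16213318 to 16272712, plus strand), the armadillo protein that gathers desmoplakin at the plaque, ran from 87.8 CPM in LA through 144 in RV and 145 in LV to 168 in RA. Live cells held 120 CPM and fixed cells 70.9. Its LA interval (69.8 to 109) lay below those of the other 3 chambers, and its fixed interval (60.7 to 82.4) lay below the live one (103 to 139).

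Jup (chromosome 11, 100368958 to 100397763, minus strand) encodes plakoglobin, which sits in both desmosomes and adherens junctions. It was among the scarcest of the 10, running from 42.5 CPM in RA through 48.2 in LA and 59.2 in RV to 72.9 in LV. Fixed cells held 14.8 CPM and live cells 24.3. All 4 chamber intervals overlapped, those of LV (62.8 to 84.1) and RA (26.0 to 65.7) only at their ends. Dsg2 (chromosome 18, 20558074 to 20604521, plus strand), the desmosomal cadherin of heart muscle, ran from 53.5 CPM in LA through 57.3 in LV and 68.3 in RV to 102 in RA, and live and fixed cells held 37.1 and 38.8 CPM. The high RA value rested in large part on 1 cell of library C, which gave 17 of the 48 UMIs.

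Of the adherens junction genes, Cdh2 (chromosome 18, 16588877 to 16809246, minus strand) encodes N-cadherin, the adhesion molecule of the junction. Its level ran from 179 CPM in LA through 274 in LV and 295 in RV to 336 in RA, and was 345 CPM in live against 202 in fixed cells. LA (153 to 208) lay below the other chambers, and fixed (184 to 220) below live (316 to 376). Ctnna3 (chromosome 10, 63430098 to 65003667, plus strand) encodes alpha-T-catenin, the linker that joins the cadherin complex to actin and, through plakophilin 2, to the desmosome. The RA, LV and RV pools held 745 (669 to 827), 749 (716 to 783) and 794 CPM (763 to 827), and the LA pool 392 CPM (353 to 434). Live cells held 843 CPM (797 to 891) and fixed cells 407 (382 to 434). LA thus stood below the other 3 chambers, whose intervals overlapped, and fixed cells stood below live cells. Vcl (chromosome 14, 20929398 to 21033676, plus strand), the actin-binding protein vinculin, ran from 32.1 CPM in LA through 78.3 in LV and 78.7 in RA to 92.0 in RV, so that LA again lay below the other chambers. Live cells held 46.5 CPM and fixed cells 35.1.

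For the gap junction, Gja1 (chromosome 10, 56377330 to 56402513, plus strand) encodes connexin 43, the main connexin of working ventricular muscle. Its level was 215 CPM in LV and 213 in RV, while LA held 206 CPM and RA 270. Live cells stood at 101 CPM and fixed cells at 118. Tjp1 (chromosome 7, 65296165 to 65527781, minus strand) encodes ZO-1, which binds the tail of connexin 43 at the rim of the gap junction. It ran from 36.2 CPM in RA through 48.5 in RV and 58.5 in LV to 68.5 in LA, with 23.6 CPM in live and 18.1 in fixed cells. Des (chromosome 1, 75360329 to 75368579, plus strand) was the most even of the 10 across the chamber pools, running from 835 CPM in LA through 857 in RA and 869 in LV to 894 in RV with overlapping intervals. In single libraries Des ran from 418 to 1015 CPM in LA and from 394 to 991 in RA. Without the LA cells rich in mesothelial RNA, described below, LA stood at 992 CPM (923 to 1065). Des stood at 450 CPM in live and 475 in fixed cells.

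**Figure D1:**
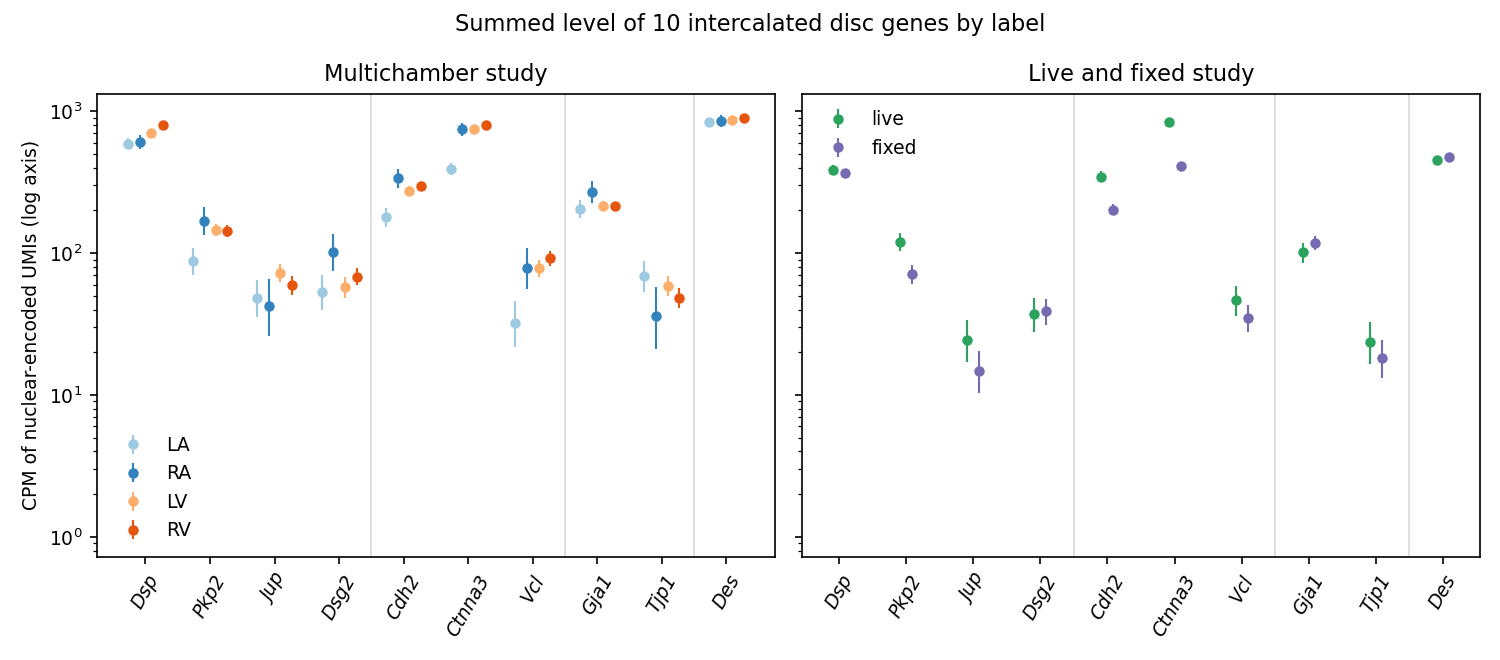
CPM of nuclear-encoded UMIs on a log axis for each gene, with 1 point per pool and bars for the exact 95% counting interval; the left panel holds the 4 chamber labels, the right panel live and fixed cells, and grey lines part the structures. Dsp, Ctnna3 and Des lie highest in all panels, and Ctnna3 drops from 843 CPM in live to 407 CPM in fixed cells.

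The order of the UMI levels was nearly the same in both ventricles. UMIs are counted once per tagged 3' end, so no adjustment for transcript length was made. In LV the order was Des, Ctnna3, Dsp, Cdh2, Gja1 and Pkp2, followed by Vcl, Jup, Tjp1 and Dsg2, whose intervals each overlapped that of the next. In RV it was Des, Dsp, Ctnna3, Cdh2, Gja1, Pkp2 and Vcl, followed by Dsg2, Jup and Tjp1. Ctnna3 and Dsp were neighbours with overlapping intervals in both. In live cells Ctnna3 stood first, above Des, and in fixed cells Des stood first, above Ctnna3, with no overlap of the intervals in either pool. The chamber libraries and the live and fixed libraries were counted in separate tables, so no level was compared across them.

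Between the left and right ventricle, none of the 10 genes was 1.5-fold or 2-fold apart. Of all 10812 genes with at least 30 UMIs, 28.8% were past 1.5-fold (16.9% higher and 11.9% lower in LV) and 13.1% past 2-fold, and of genes with at least 300 UMIs 4% were past 1.5-fold. The median log2 ratio of LV to RV was -0.063 over the 10 genes and 0.040 over all genes. Dsp was the only one whose counting interval left out a ratio of 1, at 0.877 (0.824 to 0.933), where 33.3% of all genes had such an interval. The ratio was widest for Jup at 1.23 (0.996 to 1.52), followed by Tjp1 at 1.20 (0.952 to 1.52), and for Dsg2 on the other side at 0.839 (0.674 to 1.04). Gja1 at 1.01 (0.899 to 1.13), Pkp2 at 1.01 (0.879 to 1.17) and Des at 0.972 (0.918 to 1.03) were closest to 1.

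Single libraries moved more than the ventricles did. Dsp stood at 769 CPM in LV and 819 in RV of library A, at 624 and 852 in library B, at 789 and 698 in library C, and at 607 and 853 in library D. RV was thus above LV in 3 of 4 libraries and below it in library C. Ctnna3 ran from 581 CPM (library C) to 952 (library B) in LV and from 547 (library C) to 1018 (library D) in RV, with ratios from 0.810 to 1.06 within libraries. Library C was the lowest in Ctnna3 in both ventricles. Tjp1 ran from 20.6 CPM (library D) to 81.9 (library C) in RV, a wider span than between any of its chamber pools. The median log2 ratio of the 10 genes was -0.10 in library A, -0.23 in B, 0.16 in C and 0.0078 in D, and no gene lay on the same side of 1 in all 4 libraries. Without library C, 2 of the 10 genes were 1.5-fold apart.

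**Figure D2:**
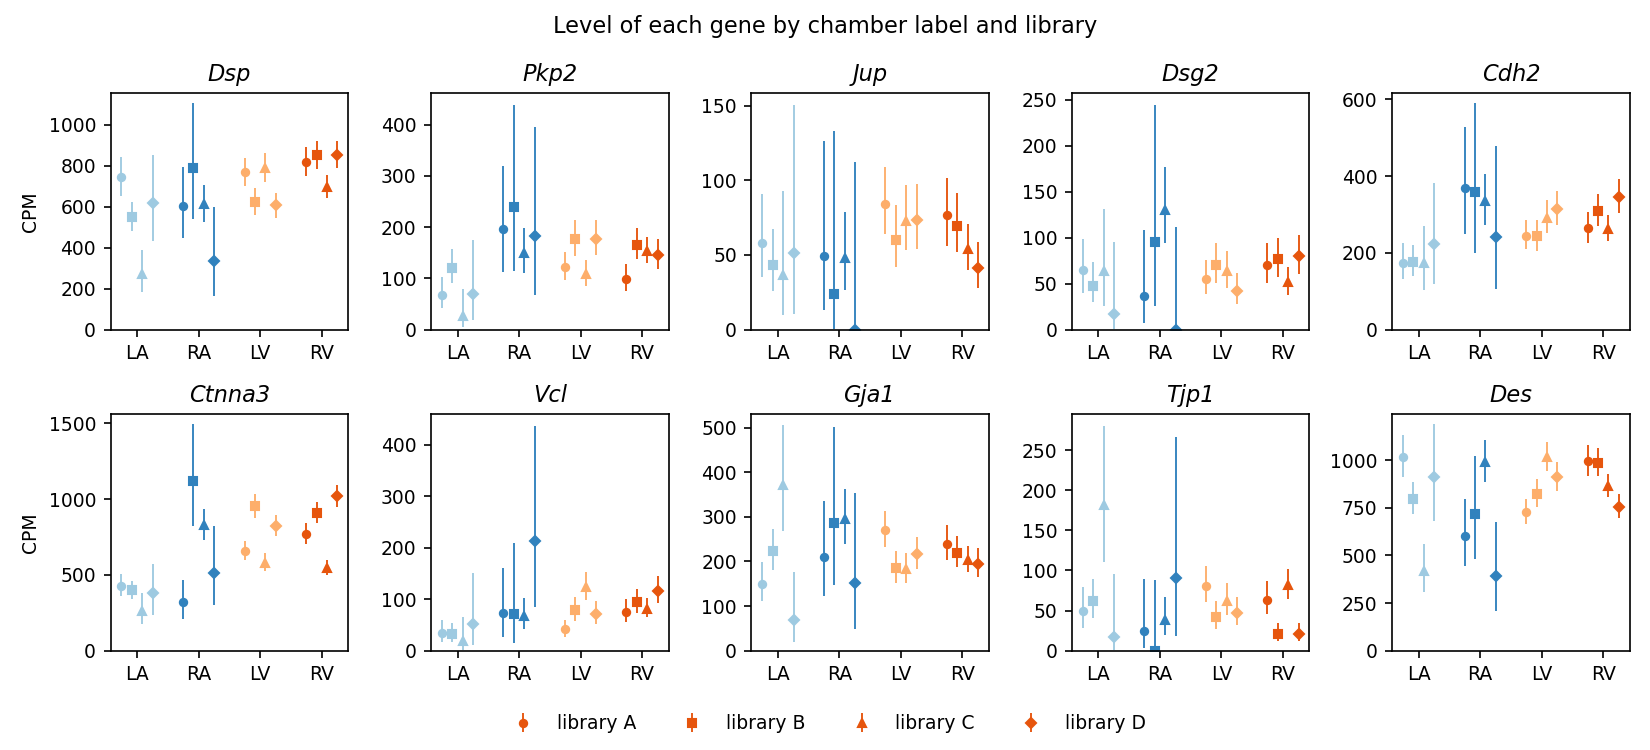
CPM of each gene on a linear axis by chamber label, with 1 point per library (A to D by symbol) and bars for the exact 95% counting interval. In Dsp the LV points run from 607 to 789 CPM and the RV points from 698 to 853, and the atrial bars are wide because those pools are shallow.

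In fixed cells Ctnna3, Cdh2, Pkp2 and Jup were at least 1.5-fold lower than in live cells, and none of the 10 was higher by that fold. Ctnna3 was 2.07-fold lower (1.90 to 2.25), Cdh2 1.71-fold (1.51 to 1.94), Pkp2 1.69-fold (1.36 to 2.10) and Jup 1.63-fold (1.00 to 2.67), the last on 36 UMIs in each pool. These 4 of 10 stood beside a background of 40% of all 7860 genes lower and 10.8% higher by that fold, so the share among the junction genes was that of all genes. Past 2-fold there was 1 gene, Ctnna3, beside 28.5% of all genes. The intervals of the 4 genes left out a ratio of 1, as did those of 48.6% of all genes. The median log2 ratio was -0.39 over the 10 and -0.38 over all genes. The ratios of the other 6 genes had intervals that held 1: Des 1.06 (0.960 to 1.16), Dsp 0.952 (0.856 to 1.06), Dsg2 1.05 (0.742 to 1.49), Gja1 1.16 (0.951 to 1.43), Vcl 0.754 (0.542 to 1.05) and Tjp1 0.769 (0.482 to 1.24).

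The choice of total shifts all genes of a pool alike, and here it decided which genes passed the threshold. With all gene UMIs as the total, mitochondrial ones included, 1 gene was past 1.5-fold, Ctnna3 at a log2 ratio of -0.80. With TMM factors the 1 gene past it was Gja1, higher in fixed cells at 0.71, beside Ctnna3 at -0.55 and a median of 0.11 over all genes. With median-of-ratios factors the 3 past it were Gja1 at 0.78, Des at 0.64 and Dsg2 at 0.63, all higher in fixed cells, beside Ctnna3 at -0.48. Ctnna3, Pkp2, Jup and Cdh2 lay under 0 with each of these totals. Ratios between members within a pool, chosen after the levels had been seen, do not depend on the total. Per Des UMI there were 1.88 Ctnna3 UMIs (1.71 to 2.06) in live and 0.858 (0.787 to 0.935) in fixed cells, and 0.768 Cdh2 UMIs (0.683 to 0.863) against 0.424 (0.381 to 0.472). Per Dsp UMI there were 0.312 Pkp2 UMIs (0.262 to 0.369) in live and 0.194 (0.164 to 0.228) in fixed cells. The intervals of these 3 pairs did not overlap between live and fixed cells. Single LV and RV pools of the 4 multichamber libraries also stood apart in such ratios, from 0.571 (0.502 to 0.650) to 1.35 (1.20 to 1.51) for Ctnna3 per Des, from 0.265 (0.222 to 0.316) to 0.458 (0.393 to 0.533) for Cdh2 per Des and from 0.121 (0.0914 to 0.158) to 0.293 (0.236 to 0.362) for Pkp2 per Dsp. The live and the fixed cells have no such replicate pools. Gja1 per Des UMI was 0.225 (0.187 to 0.269) and 0.247 (0.217 to 0.282), and Dsp per Des UMI 0.856 (0.764 to 0.959) and 0.771 (0.705 to 0.842), with overlapping intervals for both.

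The ratio of fixed to live was lower in the classes of genes with a longer span on the genome. Protein-coding genes with at least 100 UMIs that span under 10 kb had a median log2 ratio of -0.053 (594 genes), those of 10 to 30 kb -0.075, those of 30 to 100 kb -0.40, those of 100 to 300 kb -0.67 and those of 300 kb or more -0.88 (280 genes). The share 1.5-fold lower was 18.4% in the shortest and 67.5% in the longest class. Des spans 8.25 kb and had a log2 ratio of 0.080, Gja1 25.2 kb and 0.22, Cdh2 220 kb and -0.77, and Ctnna3 1574 kb and -1.05. Cdh2 and Ctnna3 lay within the middle 50% of their classes. Jup (28.8 kb, -0.71) lay below and Dsg2 (46.4 kb, 0.065) above the middle 50% of theirs, Jup on 36 UMIs in each pool and Dsg2 on 55 in live and 94 in fixed cells. The same classes of LV to RV ratios had medians between -0.0050 and 0.034. Those of atrial to ventricular ratios were also lower with a longer span, from 0.037 in the shortest class through -0.012, -0.079 and -0.14 to -0.26 in the longest, and the share 1.5-fold lower ran from 9.90% to 25.3%. These classes were drawn after the ratios had been seen, and span was not separated from expression level or transcript type.

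**Figure D3:**
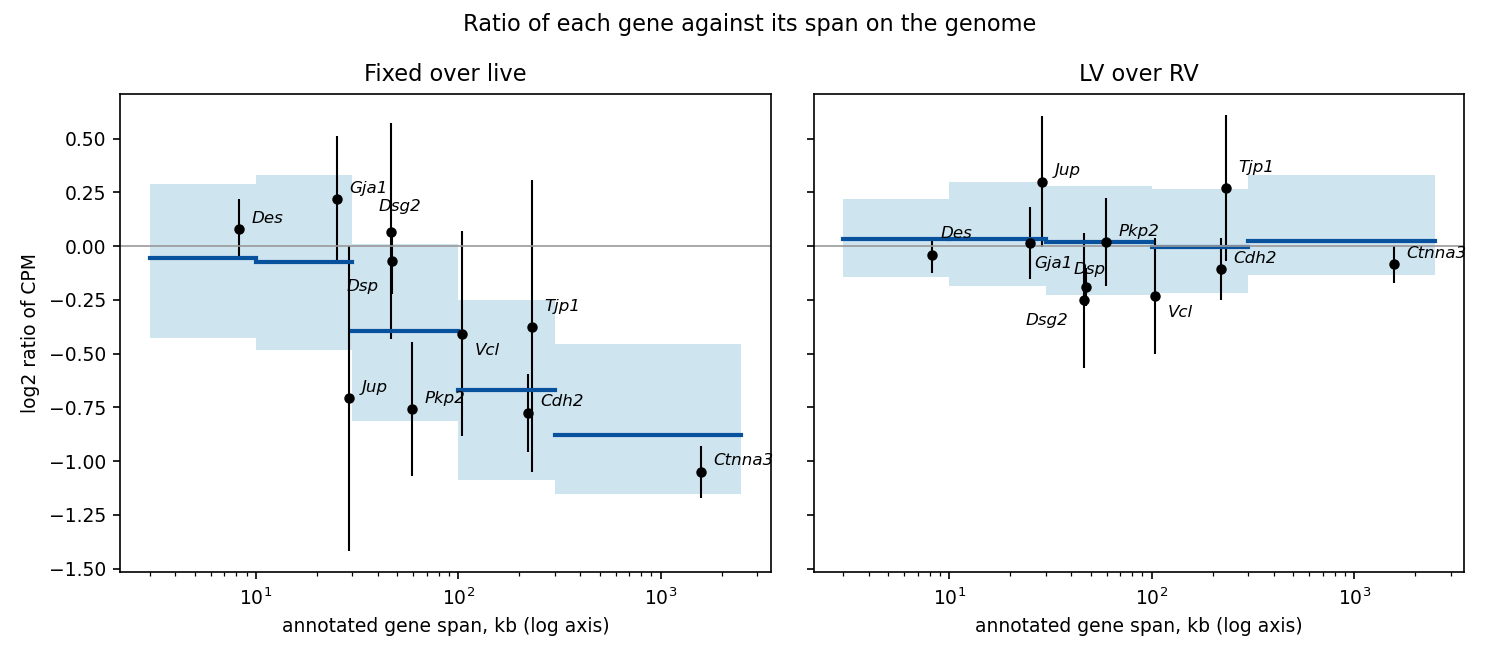
Log2 ratio of CPM against annotated gene span in kb (log axis), fixed over live on the left and LV over RV on the right; points are the 10 genes with exact 95% counting intervals, dark lines the median and shading the middle 50% of protein-coding genes with at least 100 UMIs in each span class. On the left the class medians go from -0.053 to -0.88, with Des at 0.080 and Ctnna3 at -1.05, and on the right they stay between -0.0050 and 0.034.

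A few deep cells weighed on these pools. Cells above 100000 UMIs were 6 of the live and 10 of the fixed cells, with 55.5% and 52.3% of the UMIs, and a single live cell of 299762 UMIs gave 29.4% of the live Dsp and 25.8% of the live Cdh2 UMIs. Without the cells above 100000 UMIs, the log2 ratio was -0.86 for Ctnna3, -1.07 for Pkp2, -1.01 for Jup and -0.49 for Cdh2, so that 3 of these 4 genes were past 1.5-fold, and Gja1 was at -0.20. Of the live Jup UMIs, 13 of 36 came from 1 cell, and without the top cell of each pool its log2 ratio was -0.22. The median share of mitochondrially encoded UMIs per cell was 26.1% in live and 13.8% in fixed cells, and its part in the ratios was not tested.

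With LA and RA summed and LV and RV summed, Vcl was 1.80-fold lower (1.39 to 2.36) and Ctnna3 1.52-fold lower (1.40 to 1.64) under the atrial labels, and none of the 10 was higher by 1.5-fold. Over all 11682 genes, 23.2% were lower and 17% higher. None of the 10 and 21.2% of all genes were past 2-fold. The median log2 ratio was -0.32 over the 10 genes and -0.075 over all genes. The interval lay under 1 for these 2 and for Cdh2 (ratio 0.812, 0.718 to 0.915), Dsp (0.792, 0.734 to 0.853), Pkp2 (0.794, 0.666 to 0.942) and Jup (0.707, 0.534 to 0.922), and left out 1 in 38.1% of all genes. The ratios of Dsp, Pkp2 and Jup lay under 1 in 4 of 4 libraries. That of Vcl lay under 1 in libraries A (0.729), B (0.405) and C (0.548) and above it in D (1.15, on 10 atrial UMIs). In the pooled cells Des (0.955, 0.896 to 1.02), Gja1 (1.06, 0.937 to 1.20), Tjp1 and Dsg2 had intervals that held 1. Ctnna3 was lower in 3 libraries, with ratios of 0.573, 0.497 and 0.461 in A, B and D, and higher in library C at 1.21. Without library A, B or D, Vcl was the 1 gene past 1.5-fold, with Ctnna3 at a log2 ratio of -0.52, -0.44 and -0.49, and without library C both were past it.

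The atrial sum joins unlike pools. Ctnna3 stood at 0.523 of LV in LA (0.467 to 0.586) and at 0.937 of RV in RA (0.835 to 1.05). Vcl stood at 0.410 (0.270 to 0.604) and 0.855 (0.590 to 1.21), Pkp2 at 0.604 (0.470 to 0.769) and 1.17 (0.909 to 1.49), and Cdh2 at 0.653 (0.548 to 0.774) and 1.14 (0.956 to 1.35). For these 4 the LA to LV interval lay under 1 and the RA to RV interval held 1. The LA to LV ratio of each lay under 1 in every library, while each RA to RV ratio lay on both sides of 1 between libraries. For Ctnna3 the RA to RV log2 ratio was -1.27 in library A, 0.31 in B, 0.60 in C and -0.98 in D. In the pools Dsg2 and Gja1 were above 1 in RA to RV, at 1.50 (1.07 to 2.06) and 1.27 (1.04 to 1.54), and their LA to LV intervals held 1. Of the 48 RA UMIs of Dsg2, 17 came from 1 cell of library C, and 1 cell of that library gave 33.1% of those of Gja1. The RA to RV log2 ratio of Gja1 was -0.19 in A, 0.38 in B, 0.54 in C and -0.36 in D. That of Dsg2 was -0.92 in A, 0.32 in B and 1.34 in C, with 0 RA UMIs in D. In the pools Dsp was under 1 on both sides, at 0.844 (0.765 to 0.929) and 0.760 (0.670 to 0.860), and Des was near 1 on both, at 0.962 and 0.959. Without the LA cells rich in mesothelial RNA, described below, LA stood at 698 CPM for Dsp (641 to 760) against 700 in LV. For Des it then stood at 992 against 869. The LA to LV log2 ratio of Dsp was -0.044 in library A, -0.18 in B, -1.53 in C and 0.027 in D, and RA to RV lay under 1 in each library.

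Between LA and RA, Pkp2, Dsg2, Cdh2, Ctnna3 and Vcl were lower in LA by 1.88- to 2.45-fold, and Tjp1 was 1.90-fold higher (1.10 to 3.45). Of all 5715 genes 17.4% were lower and 31.6% higher, and the median log2 ratio was 0.11 over all genes against -0.65 over the 10. Past 2-fold there was 1 of the 10, Vcl, beside 27.4% of all genes. The libraries weighed unequally here. In LA, libraries A and B gave 325958 and 439440 of the 933747 nuclear-encoded UMIs, and in RA library C gave 313967 of 470095. The pooled ratios thus mix label with library. Pkp2 was 67.5 CPM in LA against 197 in RA of library A, 121 against 239 in B, 27.2 against 150 in C and 68.7 against 182 in D. LA was thus the lower in each library, on 3 to 53 UMIs a pool, with intervals that overlapped in B and D. LA was also the lower in each library for Cdh2 (ratios 0.474 to 0.920) and Vcl (0.243 to 0.457, on 2 to 21 UMIs a pool). Ctnna3 was 430 against 320 CPM in library A and 398 against 1123, 263 against 828 and 378 against 516 in B, C and D, so its direction differed between libraries.

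The RA pool rested on few cells. In RA, 2 cells of library C above 100000 UMIs held 43.7% of the UMIs, and 1 of them, of 183391 UMIs, gave 40% of the Ctnna3, 38.6% of the Cdh2, 33.1% of the Gja1 and 30.3% of the Des UMIs. Without cells above 100000 UMIs the median log2 ratio of the 10 was -0.31, with Ctnna3 at -0.35, Cdh2 at -0.58, Pkp2 at -1.02 and Vcl at -1.39. With every cell given equal weight the median was 0.19 and Ctnna3 stood at 0.30. Without library C the median was -0.081.

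Tjp1 and Gja1 in LA also followed single cells. Of the LA cells, 2 (61197 UMIs in library C and 102715 in library B) had 0.951% and 0.946% of their RNA from a list of mesothelial genes, those of the lining of the heart, and held Myl2 at 1288 and 680 CPM. These 2 cells gave 68 of the 192 LA UMIs of Gja1 and 32.8% of those of Tjp1, but 1.28% of those of Des and 3.28% of those of Ctnna3. Without them LA stood at 160 CPM for Gja1, 55.4 for Tjp1, 992 for Des, 456 for Ctnna3 and 698 for Dsp. When 1 such RA cell was left out as well, 1 gene, Vcl, was 1.5-fold apart between atrial and ventricular labels, and the median log2 ratio of the 10 exceeded that of all genes by 0.01.

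Single ventricular cells were compared after each had been thinned to 20000 UMIs, which left 76 LV, 80 RV, 23 live and 34 fixed cells and left out the shallower ones. Unlike the totals behind CPM, these 20000 UMIs include mitochondrially encoded ones. A median LV cell held 10.5 Des, 8 Ctnna3, 7.5 Dsp, 3 Cdh2, 2 Gja1 and 1 Pkp2 UMIs, and a median RV cell 10, 9, 8, 3, 2 and 1. Des was counted at least once in each of these cells. In live cells Ctnna3 ran from 5 to 23 UMIs with a median of 11, and in fixed cells from 0 to 23 with a median of 7, so the ranges overlapped while the middle 50% ran from 8.5 to 16.5 and from 3 to 9. Des had a median of 6 in live and 8.5 in fixed cells. With a median mitochondrial share of 26.1% in live and 13.8% in fixed cells, thinned counts do not share a nuclear-encoded total. By CPM the fixed to live ratio of Des was 1.06 (0.960 to 1.16).

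The spread between cells differed among the genes. The Fano factor, the variance of the thinned counts over their mean, was 3.27 for Vcl in LV and 3.33 in RV, above the medians of 2.46 and 2.19 over genes of like mean. For Tjp1 it was 2.93 and 5.10, above 2.42 and 2.10, with at most 8 and 12 UMIs in a cell and 63.2% and 75% of cells at 0. Jup at 1.71 and 1.56 and Dsg2 at 1.38 and 0.977 lay below the medians of genes of like mean, which ran from 2.11 to 2.47. Ctnna3 was below in LV (2.91 against 3.29) and above in RV (4.10 against 3.05). When cells were thinned to 10000 UMIs instead, Ctnna3 was above in LV too (2.86 against 2.38), and Dsg2 in LV was above (1.79 against 1.76). In live and fixed cells at 20000 UMIs, Vcl (0.943 and 1.35) lay below such medians (1.57 and 1.76). Tjp1 did too (0.864 and 1.27 against 1.39 and 1.70). Jup was above in live (2.96 against 1.57) and below in fixed cells (1.05 against 1.56), and Dsg2 the reverse (1.37 against 1.72 and 1.96 against 1.73). At 10000 UMIs Vcl was above in both (1.51 against 1.38 and 1.63 against 1.35). Tjp1 was then above in live cells (4.27 against 1.26), and Jup below (0.885 against 1.40). The LV cell with most Tjp1 among the thinned cells, 8 UMIs, had 0.750% of its RNA from endothelial genes, the highest share of the 76 LV cells. The RV cell with most, 12 UMIs in library A, had 0.0713% and ranked 20 of 80 RV cells in that share.

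**Figure D4:**
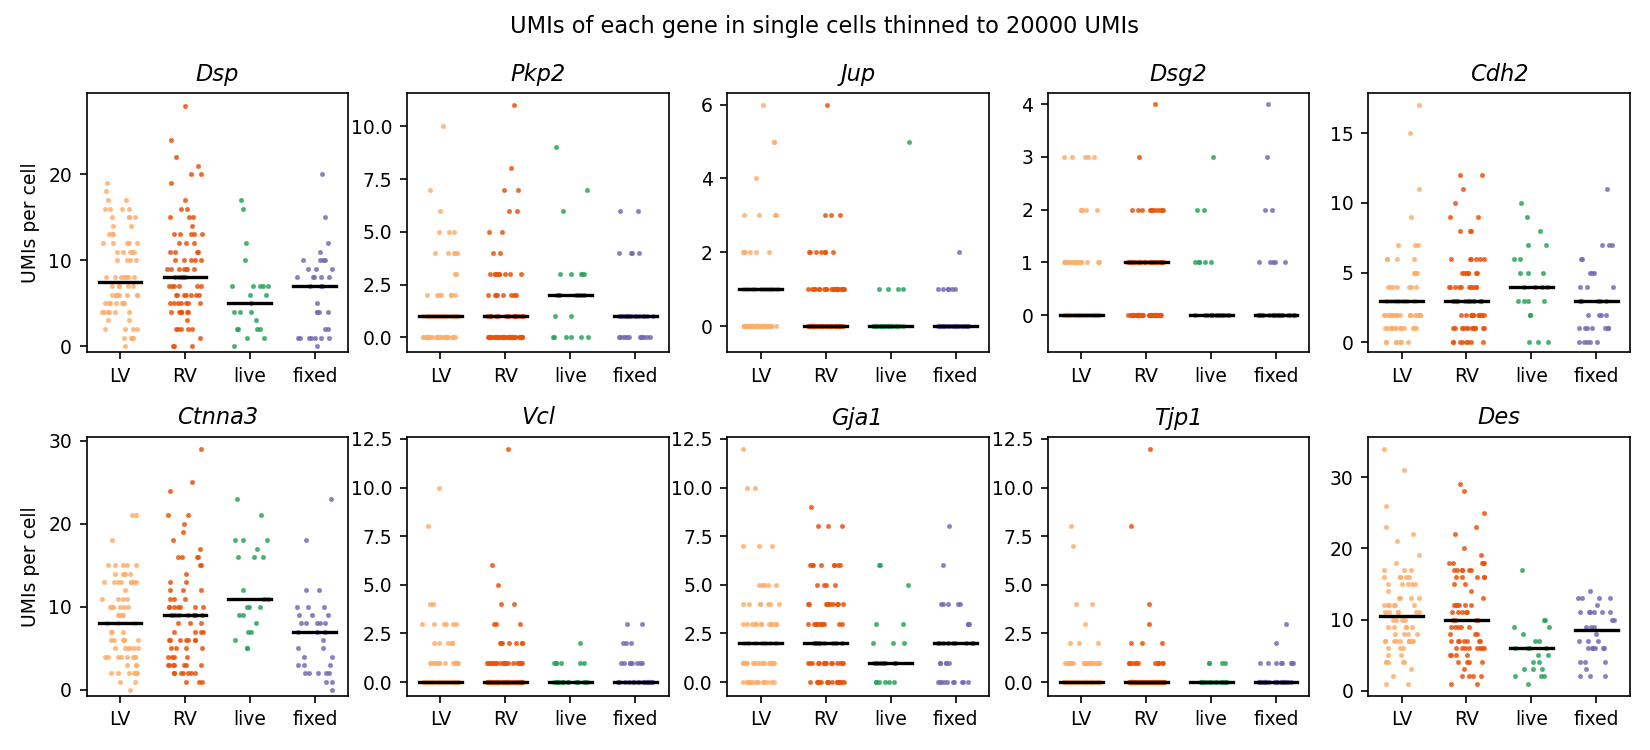
UMIs of each gene in single cells thinned to 20000 UMIs, by label, with 1 point per cell and a black line at the median. Ctnna3 medians are 8 and 9 in LV and RV, 11 in live cells and 7 in fixed cells. Vcl and Tjp1 have medians of 0, with a few LV and RV cells far above and at most 3 UMIs in a live or fixed cell.

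The 10 genes varied largely apart from each other. Over the 156 thinned LV and RV cells the 45 pairs had a median Spearman rho of 0.049, from -0.14 to 0.29, and ranks within library and chamber gave a median of 0.058. The highest was Pkp2 with Cdh2 at 0.29, then Pkp2 with Ctnna3 at 0.24 and Ctnna3 with Gja1 at 0.23. These cells share libraries and a fixed depth. Low counts can lower such values, and the part of this was not tested. The values are given as a description.

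The gene nearest to the summed UMIs of the 10 was Ttn, the giant sarcomeric spring protein, at a rho of 0.55. It was followed by Myh6, the alpha myosin heavy chain, at 0.53, Ryr2, the calcium release channel, at 0.52, Cacna1c, the L-type calcium channel, at 0.52, and Lpl, lipoprotein lipase, at 0.49. Over all 1602 genes with a mean of at least 1 UMI the median rho was 0.096, and 90% lay between -0.078 and 0.28. The members did not all track the same genes. The nearest to Ctnna3 was Ttn at 0.62 and the nearest to Des was Myl3, a ventricular light chain, at 0.52, while Ctnna3 had 0.039 with Myl3 and Des 0.082 with Ttn. Dsp was nearest to Ttn at 0.33, Pkp2 to Qk, an RNA-binding protein gene, at 0.32, Cdh2 to the nuclear RNA gene Malat1 at 0.33, and Gja1 to Tom1l2 at 0.29.

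A list of 36 other genes of the disc, its anchoring sites and its filaments was set beside the 10, of which 34 were in the multichamber table and 33 in the live and fixed one. In fixed against live cells, 15 of the 28 with at least 30 UMIs were 1.5-fold lower and none was higher, with a median log2 ratio of -0.67, beside 40% lower, 10.8% higher and a median of -0.38 over all genes. Sorbs2 (2.47-fold lower) and Nexn (2.41), which encode actin-binding proteins, Nrap (2.65) and Xirp2 (2.11), which encode actin-binding proteins of the developing and mature disc, and Ank3 (2.59), an ankyrin gene, were among the 15. Cryab, the small heat shock protein that guards desmin, was at a ratio of 1.07 (1.01 to 1.13).

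Between LV and RV, 2 of 32 of the list were higher and 2 lower, beside 16.9% and 11.9% of all genes. Gja5, which encodes connexin 40 of arteries and the conduction system, was 13.7-fold higher in LV (5.57 to 43.9) on 59 against 5 UMIs. Of the 59, 44 came from 1 cell of library A, the same cell that led Tjp1 in LV. Tln1, the talin of integrin sites, was at 1.65 (1.32 to 2.05), Ctnnd1, p120-catenin, was 1.59-fold lower, and Tmem43 was 1.50-fold lower on 12 against 21 UMIs. By library the ratio of Tln1 ran from 0.558 to 5.39, above 1 in 2 libraries and below it in 2. That of Ctnnd1 lay under 1 in all 4. Among the most abundant genes of the list, Cryab (1.02), Nexn (0.926) and Xirp2 (0.887) were close to 1.

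Under the atrial labels, 4 of 33 were higher and 1 lower than under the ventricular ones, beside 17% and 23.2% of all genes. Synm, the synemin gene, was at a ratio of 4.45 on 27 against 24 UMIs, but 21 of the 25 LA UMIs came from a mesothelial-rich cell, as did 12 of 19 of Tmem43 (2.40). Cxadr, a receptor of the disc, was at 1.59, with 15 of its 42 LA UMIs from a mesothelial-rich cell. Without the mesothelial-rich cells the ratios were 0.745 for Synm, 0.542 for Tmem43 and 1.10 for Cxadr, on 4, 4 and 35 atrial UMIs. In all cells Ctnnb1, beta-catenin, was 3.62-fold lower on 6 against 86 UMIs. Between LA and RA, 3 of 27 were higher and 8 lower, beside 31.6% and 17.4% of all genes. Tln2 (2.25-fold lower) and Nexn (2.05) lay on the side of Cdh2 and Ctnna3, and Xirp2 was 1.49-fold lower. A single RA cell of 183391 UMIs gave 45.3% of the RA Nexn, 38.9% of the Xirp2 and 18.4% of the Tln2 UMIs. By library the Nexn ratio ran from 0.210 to 1.46, and those of Tln2 and Xirp2 lay under 1 in all 4. Tln1 was at 3.32 (1.80 without the mesothelial-rich cells), and 34 of its 66 LA UMIs came from such a cell. Mtss1 was at 1.88 (0.947 to 4.05), with 16 of its 41 LA UMIs from such a cell. Without the mesothelial-rich cells it was at 1.31 (0.619 to 2.97).

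Some members overlap other genes on the opposite strand, and whether the counting used strand is not given in the sources used here. Ctnna3 holds Lrrtm3 and Gm10118, counted at up to 25 and 21 UMIs a pool, Vcl overlaps Ap3m1 at up to 45 UMIs, and Des overlaps Gm15179 at up to 43 UMIs. These stand against 1922 Ctnna3 and 2229 Des UMIs in LV. For Vcl the overlapping gene weighed more under the atrial labels, with 18 Ap3m1 beside 30 Vcl UMIs in LA and 10 beside 37 in RA, than in LV, with 24 beside 201.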

How the data were processed

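The authors deposited counts that are not normalized: per study, UMI counts in one table and read counts in another, with genes as lines and cell barcodes as columns. Deposited cell tables give the chamber, fixation and library labels that set the groups. The submitters' processing notes name GRCm38, STAR 2.5.4b and featureCounts. Which annotation release, strand option and UMI tool the authors used is not stated there. Symbols and coordinates came from GENCODE M21, which matched 24489 of 24522 and 22648 of 22679 gene IDs. Of the barcode columns, 45 had no label in the cell tables and were not used, and no doublet caller was run.

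The 10 genes and all lists were chosen with earlier results of these data known. The 10 are all named. Of the other junction genes, the 4 with most UMIs and the 4 with the widest ratio in each comparison are named, and others were named after their values were seen. One gene that this rule names is not reported here. Genes nearest in pattern needed a mean of 1 UMI per cell thinned to 20000 UMIs. Where a count was 0, a floor of 3 counts was used. Cell filters were 1000 UMIs and 500 genes. As alternatives, the total was taken from all UMIs or scaled by median-of-ratios or TMM factors (edgeR), reads replaced UMIs, cells had equal weight, a pseudocount of 5 CPM was added, the cell filters were moved, and each library was left out. Cells with over 2% of RNA from the lists of other cell types were also left out as an alternative. The ratio and thinning steps were tested on simulated data. Versions were edgeR 4.0.16 in R 4.3.3, and scipy 1.17.1, pandas 2.3.3, matplotlib 3.10.9 and numpy 2.4.6 in Python 3.11.15.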

Additional observations from a re-analysis of the deposited data

Results flagged for a closer look

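In 2 of 40 sets of 4 libraries, 1 gene in 1 chamber each, a library lay far from the other 3. Chance flags about 1 in 20 such sets. Cdh2 in LA stood at 223 CPM in library D, on 13 UMIs, with the other libraries between 173 and 178 CPM. Vcl in RA stood at 212 CPM in library D, on 7 UMIs, with the others between 66.9 and 73.8 CPM. Their cause was not tested.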

How the results depend on the processing

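Chambers were set side by side within libraries A to D, and no test paired by library was run, since 4 pairs cannot go below p = 0.125 in a two-sided exact sign-flip test. Live and fixed cells carry no library, animal or replicate number to pair them by. Depth limits Jup, Vcl, Tjp1 and Dsg2 most, with 17 to 50 UMIs each in the LA and RA pools apart from Tjp1 in LA. The count of genes 1.5-fold apart between atrial and ventricular labels, 2 of 10, was 1 with all gene UMIs as the total, with median-of-ratios factors, with equal weight per cell and without mesothelial-rich cells, and 0 at 2-fold. Leaving out a library gave 1 to 2, with a median log2 ratio of -0.38 to -0.25. Cells with over 2% of RNA from other cell types, red blood cells included, were 26 of 56 LA and 35 of 44 RA cells. Without such cells, the median log2 ratio of the 10 less that of all genes was -0.25 for atrial to ventricular labels, against -0.24 in all kept cells. For LA to RA it was -0.85 against -0.76. For LA to RA the median log2 ratio became 0.19 with equal weight per cell, with Dsg2 at 0.085 and Ctnna3 at 0.30, and ran from -0.65 to -0.081 with a library left out. Dsg2 ran from -1.28 (without library A) to 0.22 (without library C). The count was 6 of 10 with any library left out, but not the same genes: without library C, Ctnna3 (-0.49) and Dsg2 left it and Jup (0.64) and Des (0.60) entered it, for 3 lower and 3 higher. It was 1 at 2-fold. For LV to RV the count of 0 became 1 with equal weight per cell and with read counts and ran from 0 to 2 with a library left out, the median running from -0.16 to -0.02. For fixed to live the count of 4, all lower, became 1 with all gene UMIs (Ctnna3, lower), with TMM factors (Gja1, higher) and at 2-fold (Ctnna3, lower), and 3 with median-of-ratios factors (Gja1, Des and Dsg2, all higher). The median became 0.10 with TMM and 0.17 with median-of-ratios factors, which moved the median of all genes from -0.38 to 0.11 and 0.18, so that the 10 genes were 0.01 below it. The causes were not tested. Leaving out mesothelial-rich cells and cells above 100000 UMIs, the span classes and the LA to LV and RA to RV ratios were chosen after seeing the data.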
